A study of Rattus norvegicus with 12 samples.

Results

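The genes described here are 40 rat genes of glycolysis and of the transcriptional response to low oxygen, measured by RNA sequencing in PAC1 cells after knockdown of the RNA-binding proteins RBPMS, RBFOX2 or QKI. They were chosen by 1 measured value, the low level of Ak4, a known hypoxia target, in the RBFOX2 knockdown, and the other 39 members were then listed by their known function. All 40 were among the 33294 genes of the count table, 39 of them under the listed symbol and carbonic anhydrase 9 (Car9) under the symbol Ca9. All 40 were also among the 18438 genes that passed the filter on low counts. No library was labelled as kept at low oxygen, so "hypoxia-induced" names what these genes are known for and not a response measured here.

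PAC1 is an established smooth muscle cell line from rat pulmonary artery. The control group received a scrambled siRNA that the study calls C2, and each of the other 3 groups received an siRNA against RBPMS, RBFOX2 or QKI (gene symbol Qk), with 90 pmol used in every group. There were 3 libraries in each of the 4 groups. According to the labels all cells were transfected again at 24 h and collected 48 h after that, whereas the methods of the study give later times, and this difference was not resolved. The labels do not say whether the 3 libraries of a group came from separate cultures. The methods of the study state at least 3 independent biological replicates for its experiments. The p-values measure the spread between these libraries. The libraries held 110595399 to 151665474 counts each. The targeted genes had log2 fold changes of -2.50 for Rbpms, -2.05 for Rbfox2 and -3.13 for Qk in their own knockdowns, with no overlap with the control libraries. They also changed in the other knockdowns, each at an adjusted p under 0.05. Rbpms had log2 fold changes of -0.81 after RBFOX2 and -0.49 after QKI knockdown. Those of Qk were -0.42 after RBFOX2 and 0.18 after RBPMS knockdown, and those of Rbfox2 were -0.12 after RBPMS and -0.15 after QKI knockdown.

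Glycolysis splits glucose into pyruvate and yields ATP without oxygen, and lactate dehydrogenase turns the pyruvate into lactate so that the pathway can go on. When oxygen is low, the prolyl hydroxylases encoded by the Egln genes no longer mark the HIF-alpha subunits for destruction by the VHL complex, and HIF-alpha then pairs with ARNT and binds short DNA motifs near its target genes. Its known targets include glucose transporters, most glycolytic enzymes, regulators of mitochondrial use of pyruvate, and genes that restrain growth or remodel the matrix. Pulmonary artery smooth muscle is known for a strong response to low oxygen. HIF-alpha is regulated mainly at the level of the protein, which RNA sequencing does not measure.

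The core of the HIF binding motif is ACGTG or GCGTG. Both were searched on both strands, overlapping matches included, in the 250 bases before the transcription start that RefSeq gives for each gene. RefSeq promoter windows were matched for 36 of the 40 members, and 22 of these 36 (61.1%) held at least 1 match, against 37.9% of all 27457 promoters and 51.4% of the 12931 promoters of tested genes. The ACGTG form was found in 14 of 36 members (38.9%), against 16.9% of all promoters and 20.8% of those of tested genes. These shares are descriptions, and a match does not show binding. The promoters of Ak4 and of the 3 other members with the largest changes among those that hold the motif are shown, with the matches in capitals, from RefSeq on assembly GRCr8, which is not the assembly used for the counts.
Ak4 (chr5:121154886-121155135, plus strand): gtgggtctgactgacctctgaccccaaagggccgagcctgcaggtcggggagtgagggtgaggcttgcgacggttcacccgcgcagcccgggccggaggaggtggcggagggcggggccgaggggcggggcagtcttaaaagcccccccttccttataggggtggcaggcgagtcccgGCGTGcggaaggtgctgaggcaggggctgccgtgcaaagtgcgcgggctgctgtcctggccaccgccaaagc
Ddit4 (chr20:28437038-28437287, minus strand): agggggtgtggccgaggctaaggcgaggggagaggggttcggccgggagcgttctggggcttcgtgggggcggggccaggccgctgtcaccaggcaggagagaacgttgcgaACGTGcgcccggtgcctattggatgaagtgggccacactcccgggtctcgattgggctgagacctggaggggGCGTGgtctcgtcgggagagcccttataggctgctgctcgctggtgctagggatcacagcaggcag
Ankrd37 (chr16:53001257-53001506, plus strand): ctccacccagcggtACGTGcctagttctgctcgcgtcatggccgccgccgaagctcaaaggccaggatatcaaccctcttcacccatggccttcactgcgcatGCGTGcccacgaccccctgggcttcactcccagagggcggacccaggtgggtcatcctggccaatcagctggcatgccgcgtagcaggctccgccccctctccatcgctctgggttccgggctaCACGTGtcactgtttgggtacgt
P4ha2 (chr10:38743644-38743893, plus strand): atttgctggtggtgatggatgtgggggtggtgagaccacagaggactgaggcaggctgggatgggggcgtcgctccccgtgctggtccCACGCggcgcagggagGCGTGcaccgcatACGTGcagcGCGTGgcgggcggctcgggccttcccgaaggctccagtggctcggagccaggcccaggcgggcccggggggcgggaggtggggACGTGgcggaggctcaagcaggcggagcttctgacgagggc
Ak4 held 1 match, of the GCGTG form. Ddit4 held 2 matches, and Ankrd37 held 4, of which a pair lies on the opposite strands of 1 CACGTG. P4ha2 held 5 matches. Of these genes Ak4, Ddit4 and Ankrd37 were lower in the knockdowns and P4ha2 was higher, and the last 3 shown were picked for holding the motif. The windows of 14 members held no match, among them Slc16a3, Egln3, Car9 and Adm.

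Ak4 encodes a mitochondrial adenylate kinase, an enzyme that exchanges phosphate between nucleotides. Levels are given throughout as CPM, the counts of a gene per 1000000 counts of its library after scaling by TMM factors, and they are compared only between groups and not between genes. In the control libraries Ak4 was at 64.3, 65.7 and 67.2 CPM. In the RBFOX2 knockdown it was at 8.97, 9.06 and 9.07 CPM. The log2 fold change of -2.86 is the value that led to the choice of the genes and is given with no test. Among the 10707 genes whose mean reached 5 CPM, only Sspn (-4.73) had a lower log2 fold change in that knockdown, and Itgb1 (-2.68) came next after Ak4. The libraries of the other 2 knockdowns were not part of the choice, but the control libraries they are compared with were. The tests of Ak4 in these 2 knockdowns are therefore not independent of the choice. Ak4 was at 22.0, 21.3 and 21.6 CPM in the RBPMS knockdown, a fall of 3.04-fold (-1.60 ± 0.045 SE on the log2 scale, adjusted p = 2.26e-14). In the QKI knockdown it was at 13.8, 12.7 and 14.5 CPM, a fall of 4.81-fold (log2 fold change -2.26 ± 0.047 SE, adjusted p = 1.13e-16). The 3 knockdowns did not overlap with control or with each other, and Ak4 was 1.58-fold higher after RBPMS than after QKI knockdown (adjusted p = 1.7e-09). In RNA from whole cultures, a lower level in every cell and fewer cells with the transcript cannot be told apart.

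The remaining members did not move as one group. After RBFOX2 knockdown, 23 of the 39 members other than Ak4 were lower than control at an adjusted p under 0.05 (58.97%), 8 were higher (20.51%) and 8 did not pass the test. Of all genes tested, 30.1% were lower and 30.1% were higher in that knockdown. With an absolute log2 fold change above 1 as well, 3 members were lower and 3 were higher (7.69% each), against 4.73% and 6.96% of all genes. The median log2 fold change of the 39 members was -0.30, against 0.02 over all genes, so most differences were well below 2-fold. The lower members past 2-fold were Slc16a3, Bnip3 and Ankrd37, and the higher ones were Egln1, Slc2a3 and P4ha2.

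In the RBPMS knockdown, 22 of 40 members were lower (55.0%), 8 were higher (20.0%) and 10 did not pass the test, where 29% of all genes were lower and 30.4% were higher. Past 2-fold, 3 members were lower (Egln3, Slc16a3 and Ak4) and 2 were higher (Slc2a3 and P4ha2), or 7.5% and 5.0%, against 4.5% and 5.16% of all genes. In the QKI knockdown, 25 of 40 were lower (62.5%), 8 were higher (20.0%) and 7 did not pass the test, where 34% of all genes were lower and 32.9% were higher. Past 2-fold, 6 members were lower (Slc16a3, Ak4, Ddit4, Ankrd37, Ndrg1 and Mxi1) and 2 were higher (Slc2a3 and P4ha2), or 15% and 5.0%, against 9.24% and 8.28% of all genes. The lower members of both knockdowns include Ak4, which was chosen by its fall against the same control libraries. The lower shares are therefore not independent of that choice, and those past 2-fold rest on few members. The median log2 fold change of the members was -0.28 in the RBPMS knockdown and -0.30 in the QKI knockdown, against 0.01 over all genes in both. At an adjusted p under 0.05 alone, the share of lower members was above that of all genes in each knockdown. The share of higher members was below it, whereas past 2-fold that share in the RBFOX2 knockdown was close to that of all genes. Most members had a mean of at least 5 CPM, as did 10707 of the 18438 genes tested. Genes with few counts pass the test less readily, so the shares of members and of all genes are not matched for level. No test of the list as a whole was made, because the genes were chosen with results of these data known.

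**Figure D1:**
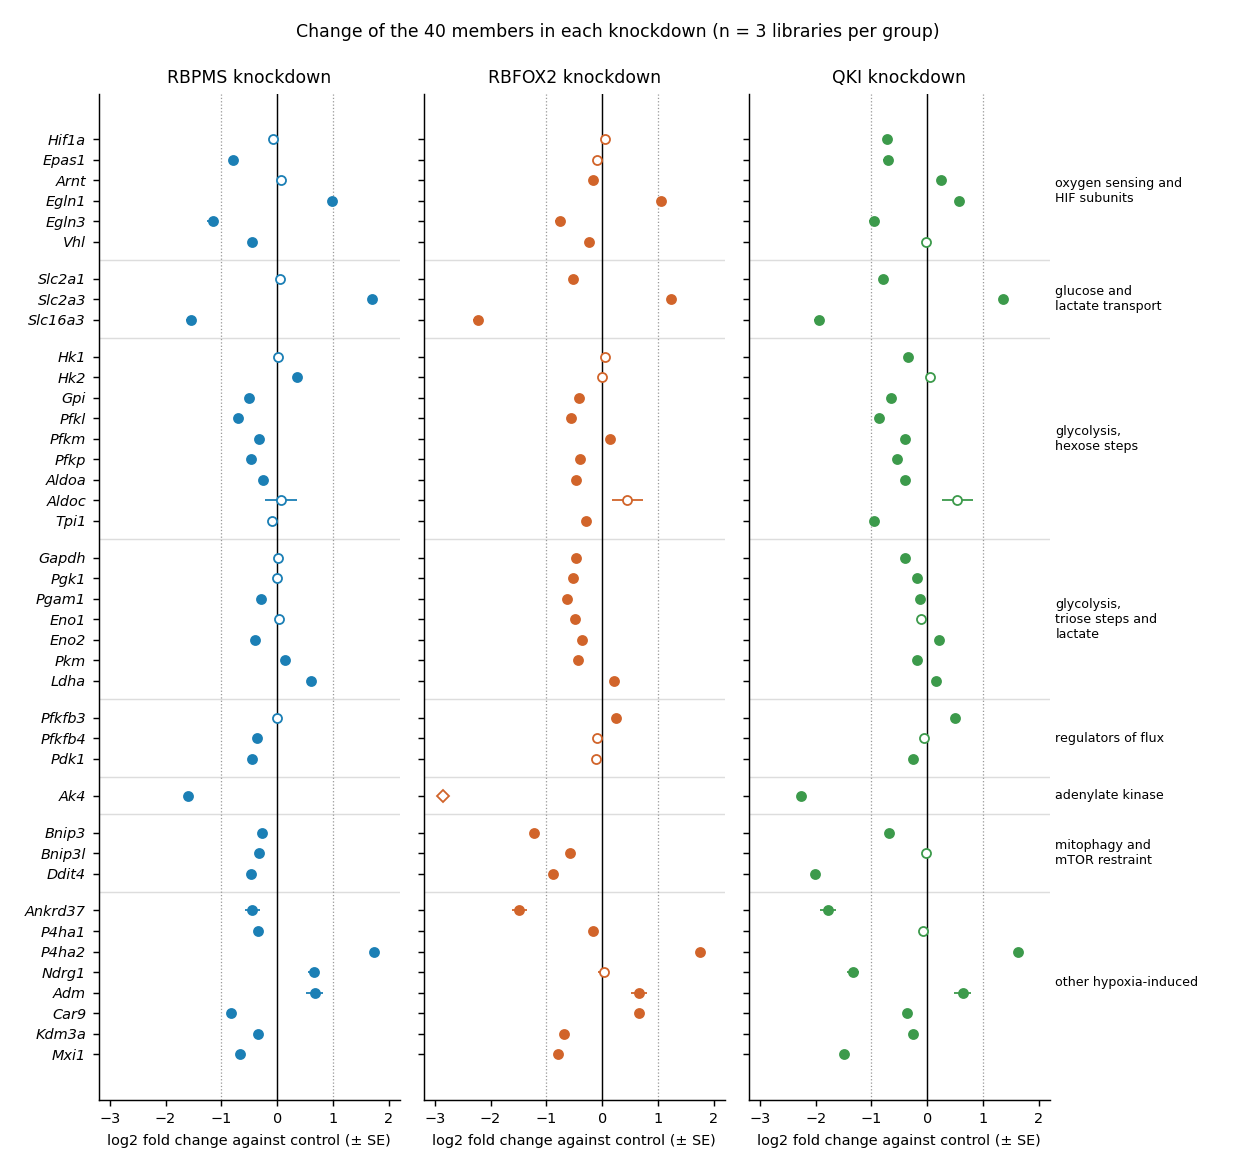
Log2 fold change against control (x axis, ± SE) of the 40 members (y axis, by role) in the RBPMS, RBFOX2 and QKI knockdowns, with 3 libraries per group, filled points for an adjusted p under 0.05, open points for the rest, a diamond for the value of Ak4 that is not tested, and dotted lines at 2-fold. Most points lie a little left of 0, Ak4 and Slc16a3 lie far left in all 3 panels, and Slc2a3 and P4ha2 lie right of the 2-fold line in all 3.

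**Figure D2:**
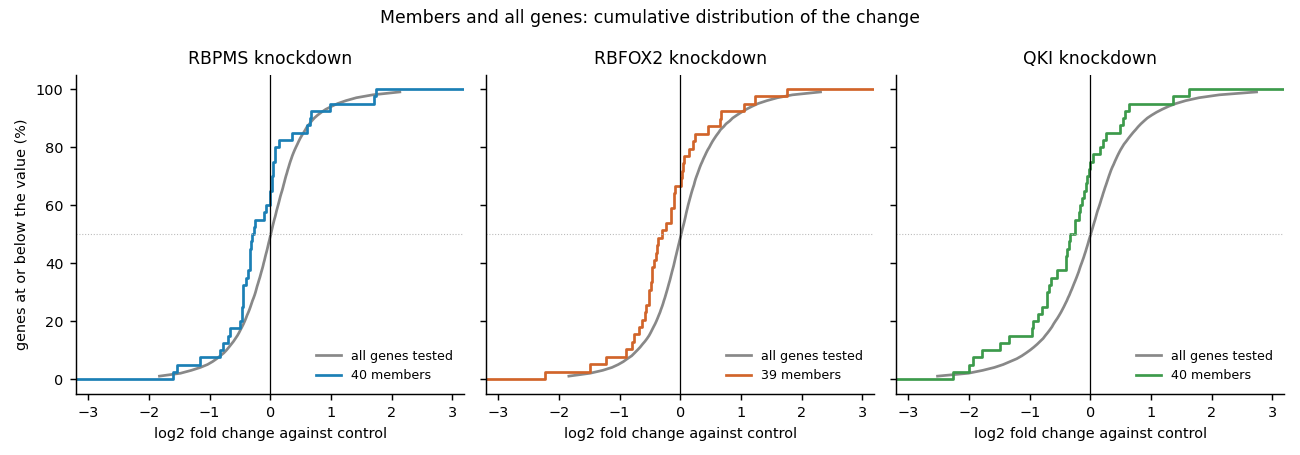
Cumulative percentage of genes (y axis) at or below each log2 fold change against control (x axis) for the members, as steps, and for the 18438 genes tested, as a smooth line drawn from its percentiles, with Ak4 left out of the RBFOX2 panel. The steps of the members cross 50% at about -0.3 in each panel, left of the line of all genes.

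The 3 comparisons share the control libraries, so their values are given side by side. Of the 39 members without Ak4, 12 were lower in all 3 knockdowns, namely Aldoa, Ankrd37, Bnip3, Ddit4, Egln3, Gpi, Kdm3a, Mxi1, Pfkl, Pfkp, Pgam1 and Slc16a3. Another 5 were higher in all 3, namely Adm, Egln1, Ldha, P4ha2 and Slc2a3. As shares these are 30.8% and 12.8% of the 39 members, where 12.5% of all genes tested were lower and 12.3% were higher in all 3. There were 6 members that were higher in at least 1 knockdown and lower in at least 1 other, namely Arnt, Car9, Eno2, Ndrg1, Pfkm and Pkm. A further 13 were lower in 1 or 2 knockdowns and higher in none, Hk2 and Pfkfb3 were higher in 1 or 2 and lower in none, and Aldoc passed the test in none. Except for the same direction in all 3, the share of all genes with each pattern was not counted. Those counts therefore describe the members only.

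The transcripts of the oxygen-sensing machinery itself differed between the knockdowns. Hif1a, which encodes the main HIF-alpha subunit, was at 117, 122 and 114 CPM in control and at 121, 123 and 120 CPM in the RBFOX2 knockdown, with overlapping libraries and a log2 fold change of 0.04 (adjusted p = 0.316), which passed as higher with library totals (0.10, adjusted p = 0.0303) and with the normalised table of the authors (0.11, adjusted p = 0.014). After QKI knockdown Hif1a fell to 70.9, 71.6 and 72.7 CPM, or by 0.72 ± 0.036 (SE) on the log2 scale (adjusted p = 1.15e-11). In the RBPMS knockdown it was at 112, 107 and 116 CPM (log2 fold change -0.08, adjusted p = 0.078), which overlapped with control, although the change passed without control library 3 (adjusted p = 0.0413), without RBPMS knockdown library 3 (adjusted p = 0.0349) with DESeq2 (adjusted p = 0.0448), with a mean of at least 200 counts (adjusted p = 0.0373) or with library totals (-0.12, adjusted p = 0.00943). Hif1a was 1.69-fold higher after RBFOX2 than after QKI knockdown (adjusted p = 5.7e-12) and 1.56-fold higher after RBPMS than after QKI knockdown (adjusted p = 9.01e-11).

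Epas1, which encodes the HIF-2-alpha subunit, was at 6.88, 6.99 and 6.76 CPM in control. It fell to 4.13, 3.49 and 4.37 CPM in the RBPMS knockdown (log2 fold change -0.79, adjusted p = 1.45e-07) and to 4.03, 4.37 and 4.23 CPM in the QKI knockdown (-0.71, adjusted p = 3.1e-07). In the RBFOX2 knockdown it was at 6.36, 6.4 and 6.70 CPM (log2 fold change -0.09, adjusted p = 0.346). The level after RBFOX2 knockdown was above that after RBPMS knockdown (log2 difference 0.70, adjusted p = 7.84e-07) and after QKI knockdown (0.63, adjusted p = 1.48e-06). Arnt encodes the shared partner of both subunits and was at 50.5, 47.9 and 51.4 CPM in control, 55.1, 48.9 and 53.4 in the RBPMS knockdown, 43.9, 45.4 and 44.6 in the RBFOX2 knockdown and 59.7, 61.3 and 57.9 in the QKI knockdown. Arnt fell by 0.16 on the log2 scale in the RBFOX2 knockdown (adjusted p = 0.00493) and rose by 0.26 in the QKI knockdown (adjusted p = 6.62e-05). With library totals as the only scaling, the fall of Arnt no longer passed the test (adjusted p = 0.0523). Its RBPMS change of 0.07 (adjusted p = 0.188) passed without RBPMS knockdown library 2 (0.12, adjusted p = 0.00972).

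The prolyl hydroxylase genes moved in opposite directions. Egln1, the main oxygen sensor, was at 35.3, 35.2 and 37.9 CPM in control. It rose to 75.6, 75.4 and 74.5 CPM in the RBFOX2 knockdown, 2.08-fold (log2 fold change 1.06 ± 0.036 SE, adjusted p = 1.1e-13). It rose to 71.0, 72.3 and 71.3 CPM in the RBPMS knockdown, 1.98-fold (adjusted p = 4.63e-13), and to 54.3, 53.3 and 53.3 CPM in the QKI knockdown, 1.48-fold (adjusted p = 2.06e-10). All knockdown libraries lay above all control libraries. The levels after RBFOX2 and RBPMS knockdown were both above that after QKI knockdown (adjusted p = 1.43e-09 and 1.8e-08). Between RBFOX2 and RBPMS knockdown the log2 difference of 0.07 ± 0.035 SE did not pass the test (adjusted p = 0.0891), but it passed with library totals (0.17, adjusted p = 0.000361), with a mean of at least 200 counts (adjusted p = 0.00939) and with the normalised table of the authors (adjusted p = 0.00821).

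Egln3, a hydroxylase gene that HIF itself induces, was at 12.5, 12.2 and 13.8 CPM in control. It fell to 5.53, 6.77 and 4.90 CPM in the RBPMS knockdown (log2 fold change -1.16 ± 0.092 SE, adjusted p = 8.56e-09), to 7.37, 7.19 and 8.15 CPM in the RBFOX2 knockdown (-0.76 ± 0.089 SE, adjusted p = 1e-06) and to 6.54, 6.82 and 6.63 CPM in the QKI knockdown (-0.95 ± 0.090 SE, adjusted p = 5.6e-08). No knockdown library overlapped with control, and the fall was larger in the RBPMS than in the RBFOX2 knockdown (log2 difference 0.40, adjusted p = 0.00166). Vhl, the substrate-binding part of the ubiquitin ligase that removes HIF-alpha, was at 67.5, 68.0 and 67.3 CPM in control. It fell to 47.7, 51.4 and 49.6 CPM in the RBPMS knockdown (-0.45, adjusted p = 5.57e-09) and to 57.7, 57.8 and 57.1 CPM in the RBFOX2 knockdown (-0.23, adjusted p = 1.32e-05). In the QKI knockdown Vhl was at 66.1, 67.9 and 66.9 CPM, which overlapped with control (adjusted p = 0.736).

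Among the transporters, the members for glucose and lactate went different ways. Slc2a3 encodes the glucose transporter GLUT3 and was at 36.0, 37.4 and 36.8 CPM in control. It rose to 123, 117 and 120 CPM in the RBPMS knockdown, 3.26-fold (log2 fold change 1.71 ± 0.039 SE, adjusted p = 1.85e-15). It rose to 87.1, 83.3 and 88.8 CPM in the RBFOX2 knockdown, 2.35-fold (adjusted p = 4.9e-14), and to 92.5, 98.7 and 91.1 CPM in the QKI knockdown, 2.56-fold (adjusted p = 6.9e-15). Every knockdown library was above every control library. The level in the RBPMS knockdown was above that in the QKI knockdown (1.27-fold, adjusted p = 3.94e-07), which in turn was above that in the RBFOX2 knockdown (1.09-fold, adjusted p = 0.00835).

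Slc2a1 encodes GLUT1, the widely expressed glucose transporter and a textbook HIF target. It was at 77.7, 80.6 and 72.2 CPM in control and at 75.3, 81.1 and 82.1 CPM in the RBPMS knockdown, which overlapped (adjusted p = 0.406). It fell to 56.2, 52.1 and 52.5 CPM in the RBFOX2 knockdown (log2 fold change -0.52 ± 0.049 SE, adjusted p = 7.02e-08) and to 44.4, 42.2 and 46.0 CPM in the QKI knockdown (-0.80 ± 0.049 SE, adjusted p = 1.75e-10). The 3 knockdowns differed from each other, with adjusted p = 3.75e-08 for RBFOX2 against RBPMS, 8.62e-05 for RBFOX2 against QKI and 1.31e-10 for RBPMS against QKI. GLUT1 and GLUT3 transcripts thus lay on opposite sides of control after RBFOX2 and after QKI knockdown.

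Slc16a3 encodes MCT4, the carrier that exports lactate from glycolytic cells. It was at 7.66, 7.65 and 7.91 CPM in control. It fell to 1.67, 1.71 and 1.59 CPM in the RBFOX2 knockdown, 4.67-fold (log2 fold change -2.22 ± 0.091 SE, adjusted p = 1.32e-12). It fell to 2.32, 2.72 and 2.94 CPM in the RBPMS knockdown, 2.91-fold (adjusted p = 1.33e-10), and to 1.87, 2.06 and 2.11 CPM in the QKI knockdown, 3.85-fold (adjusted p = 3.29e-12). Of the members other than Ak4 it had the lowest log2 fold change in the RBFOX2 and RBPMS knockdowns. Each library held at least 216 counts of Slc16a3. Slc16a3 was lower after RBFOX2 than after RBPMS knockdown (log2 difference -0.69, adjusted p = 1.06e-05) and lower after QKI than after RBPMS knockdown (adjusted p = 0.0014). Against QKI the difference of -0.28 passed with all libraries (adjusted p = 0.0172) but not without RBFOX2 knockdown library 3 (adjusted p = 0.0527) or without QKI knockdown library 3 (adjusted p = 0.0548). In the RefSeq annotation Slc16a3 overlaps Csnk1d, whose mean was 210 CPM, and counting by strand is not stated, so reads of the pair may not be fully separated.

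Most of the 16 glycolytic enzymes were lower, by small steps, after RBFOX2 and QKI knockdown. After RBFOX2 knockdown 11 of 16 were lower and 2 were higher, in the QKI knockdown 11 were lower and 2 were higher, and in the RBPMS knockdown 7 were lower and 3 were higher. As shares, 68.8%, 68.8% and 43.8% of the enzymes were lower after RBFOX2, QKI and RBPMS knockdown, against 30.1%, 34% and 29% of all genes, and 12.5%, 12.5% and 18.8% were higher, against 30.1%, 32.9% and 30.4%. None of the 16 changed more than 2-fold in any knockdown. Their summed level was 7007 ± 119 CPM (SD, n = 3) in control, 5436 ± 51.7 CPM in the RBFOX2 knockdown (77.6% of control), 5805 ± 50.6 CPM in the QKI knockdown (82.8%) and 6658 ± 481 CPM in the RBPMS knockdown (95.0%). Scaled by library totals, the sums were 80.5%, 87.9% and 92.1% of control in the same order. The sum is led by the genes with most counts, such as Aldoa and Pgam1.

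The first steps of the pathway trap glucose and commit it. Hk2, the hexokinase gene known to respond to hypoxia, was at 95.7, 102 and 96.3 CPM in control and at 97.7, 95.8 and 101 CPM in the RBFOX2 knockdown, with a log2 difference of 0.00 ± 0.040 SE (adjusted p = 0.958). It was at 97.5, 105 and 101 CPM in the QKI knockdown (0.05, adjusted p = 0.306), a change that passed with library totals (0.13, adjusted p = 0.00718) and with the normalised table (0.11, adjusted p = 0.0174). It rose to 130, 121 and 124 CPM in the RBPMS knockdown (log2 fold change 0.35, adjusted p = 6.5e-07), above both other knockdowns (adjusted p = 9.28e-07 against RBFOX2 and 3.33e-06 against QKI). Hk1, the housekeeping hexokinase gene, fell in the QKI knockdown (-0.33, adjusted p = 2.65e-08) and had log2 fold changes of 0.02 and 0.06 in the RBPMS and RBFOX2 knockdowns that did not pass the test. The RBFOX2 change of Hk1 passed with library totals (0.11, adjusted p = 0.00332), with a mean of at least 200 counts (0.08, adjusted p = 0.0181), with the normalised table (0.16, adjusted p = 0.000266) and in the fit of 6 libraries (0.06, adjusted p = 0.0393).

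Gpi, which isomerises glucose phosphate, fell in all 3 knockdowns, by 0.51 on the log2 scale after RBPMS, 0.41 after RBFOX2 and 0.65 after QKI knockdown. The 3 genes of phosphofructokinase, the main control point of the pathway, were not alike. The liver form Pfkl fell by 0.70, 0.56 and 0.86 in the same order, and the platelet form Pfkp fell by 0.47, 0.39 and 0.55. The muscle form Pfkm fell in the RBPMS (-0.32) and QKI (-0.39) knockdowns and was higher in the RBFOX2 knockdown (0.14, adjusted p = 0.00776), a call that was lost without control library 1 (adjusted p = 0.0572) or without RBFOX2 knockdown library 2 (adjusted p = 0.0729). Pfkm overlaps Senp1 in the RefSeq annotation, at a mean of 74.2 CPM for Senp1.

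Aldoa, the aldolase of muscle and most other tissues, fell by 0.25, 0.48 and 0.41 on the log2 scale after RBPMS, RBFOX2 and QKI knockdown. Aldoc, the brain aldolase, had only 34 to 100 counts per library and passed the test in no knockdown (log2 fold changes 0.07, 0.45 and 0.54, each with an SE of at least 0.28). Without 1 library it passed in the RBFOX2 comparison (0.70, adjusted p = 0.036, without RBFOX2 knockdown library 3) and in the QKI comparison (0.82, adjusted p = 0.0287, without control library 1). Tpi1, which interconverts the triose phosphates, fell most in the QKI knockdown, to 206 ± 2.97 CPM from 402 ± 3.67 CPM in control (log2 fold change -0.96, adjusted p = 5.92e-12). In the RefSeq annotation Tpi1 overlaps Spsb2, whose mean was 49.2 CPM. Tpi1 also fell in the RBFOX2 knockdown (-0.30, adjusted p = 2.41e-05). After RBPMS knockdown its change of -0.10 did not pass (adjusted p = 0.0736), but it passed without RBPMS knockdown library 2 (-0.17, adjusted p = 5.39e-05) and in 6 alternatives that kept every library, from -0.11 with DESeq2 (adjusted p = 0.0468) to -0.17 with the normalised table (adjusted p = 0.00207).

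Of the 7 genes of the later steps, from Gapdh to Ldha, which yield ATP and lactate, 6 fell after RBFOX2 knockdown, 4 after QKI knockdown and 2 after RBPMS knockdown, or 85.7%, 57.1% and 28.6%, against 30.1%, 34% and 29% of all genes. Gapdh was at 158, 161 and 149 CPM in control and fell to 112, 112 and 115 CPM in the RBFOX2 knockdown (log2 fold change -0.47 ± 0.050 SE, adjusted p = 2.96e-07). It fell to 119, 121 and 115 CPM in the QKI knockdown (-0.40, adjusted p = 1.36e-06). In the RBPMS knockdown it was at 154, 174 and 148 CPM, which overlapped with control (adjusted p = 0.753). Gapdh was lower after RBFOX2 and after QKI than after RBPMS knockdown (adjusted p = 2.63e-07 and 9.89e-07). Gapdh is commonly used as a reference gene in quantitative PCR. Here its level was lower after RBFOX2 and QKI knockdown than in control or after RBPMS knockdown. The limit on pseudogenes given below for these enzymes holds for Gapdh too.

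Pgk1, which makes the first ATP of the pathway, was at 779, 794 and 768 CPM in control and fell to 533, 553 and 548 CPM in the RBFOX2 knockdown (log2 fold change -0.52 ± 0.045 SE, adjusted p = 2.54e-08). It was at 739, 852 and 735 CPM in the RBPMS knockdown, with library 2 above and libraries 1 and 3 below the control libraries (adjusted p = 0.867). Without library 2 that difference was -0.09 and passed (adjusted p = 0.00733). In the QKI knockdown Pgk1 was at 700, 686 and 689 CPM (-0.17, adjusted p = 0.00263), a call that was lost with library totals (-0.09, adjusted p = 0.0846) and with the normalised table of the authors (-0.004, adjusted p = 0.961). The fall after RBFOX2 knockdown was larger than that after RBPMS (adjusted p = 5.28e-08) and after QKI knockdown (adjusted p = 2.75e-06).

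Pgam1, the mutase step, fell by 0.64 on the log2 scale after RBFOX2, 0.29 after RBPMS and 0.14 after QKI knockdown, and the last of these was lost with library totals (adjusted p = 0.184) and turned to 0.03 with the normalised table. Eno1, the common enolase, fell after RBFOX2 knockdown (-0.48) and had changes of 0.04 and -0.11 after RBPMS and QKI knockdown that did not pass. The QKI change of Eno1 passed with no filter on low counts (-0.12, adjusted p = 0.00727) and in the fit of 6 libraries (-0.11, adjusted p = 0.00327). Eno2, the neuronal enolase, fell after RBPMS (-0.40) and RBFOX2 knockdown (-0.36) and rose after QKI knockdown (0.21, adjusted p = 0.000291). Pkm, the pyruvate kinase gene, fell after RBFOX2 knockdown (-0.43, adjusted p = 5.03e-07). Its smaller changes after RBPMS knockdown (0.14, adjusted p = 0.0149) and QKI knockdown (-0.19, adjusted p = 0.00218) were lost with library totals (adjusted p = 0.0774 and 0.063). The RBPMS change of Pkm was also lost without RBPMS knockdown library 2 (adjusted p = 0.0529) and without control library 3 (adjusted p = 0.0763). These enzymes have many processed pseudogenes, and how reads that match several genes were counted is not stated, so small changes in them are uncertain.

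Ldha, which makes lactate, was the 1 enzyme of the 16 that rose in all 3 knockdowns. It was at 601, 613 and 622 CPM in control and rose to 893, 1038 and 871 CPM in the RBPMS knockdown, 1.53-fold (log2 fold change 0.61 ± 0.048 SE, adjusted p = 8.53e-09). It rose to 702, 711 and 709 CPM in the RBFOX2 knockdown (0.21, adjusted p = 0.00125) and to 686, 683 and 682 CPM in the QKI knockdown (0.16, adjusted p = 0.00767). All knockdown libraries were above all control libraries. The level after RBPMS knockdown was above those after RBFOX2 and QKI knockdown (adjusted p = 1.86e-06 and 3.33e-07). In all 3 knockdowns the transcript of the lactate-forming enzyme was thus higher while that of the lactate exporter MCT4 was lower.

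**Figure D3:**
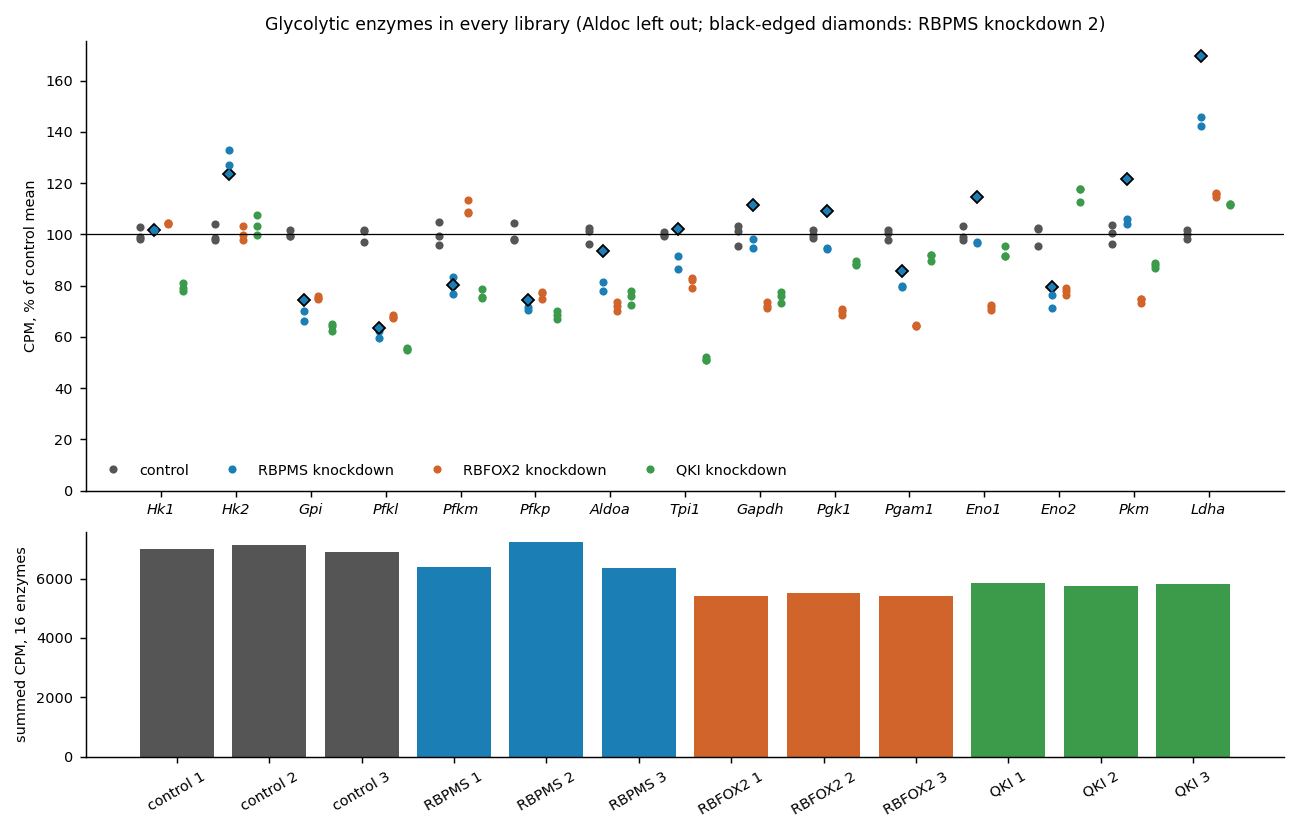
Level of 15 glycolytic enzymes in every library as a percentage of the control mean (upper panel, y axis in % of CPM, 3 points per group, RBPMS knockdown 2 as black-edged diamonds), and the summed CPM of all 16 enzymes in each of the 12 libraries (lower panel, bars from 0). The RBFOX2 and QKI libraries lie below 100% for most enzymes and above it for Ldha, and their sums lie between 5406 and 5851 CPM, below every control library.

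Library 2 of the RBPMS knockdown stood apart from the other libraries of its group. The chi-square statistic per degree of freedom over genes was 57.8 and 45.6 for its pairs, against 4.64 to 21.5 for the other pairs within groups. It was the highest of its group for 13 of the 16 enzymes and for 25 of the 40 members, whereas 45.3% of genes with at least 5 CPM were highest in it. Its summed enzyme level was 7213 CPM, against 6402 and 6359 CPM in libraries 1 and 3. Without it the RBPMS knockdown had a mean of 6380 CPM, 91.1% of control, and 24 members lower and 8 higher.

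The regulators of flux showed no shared direction. Pfkfb3, which makes the activator of phosphofructokinase, was at 45.9, 44.7 and 47.0 CPM in control. It rose to 54.3, 54.4 and 54.9 CPM in the RBFOX2 knockdown (log2 fold change 0.25 ± 0.039 SE, adjusted p = 2.86e-05) and to 63.8, 66.2 and 63.6 CPM in the QKI knockdown (0.49 ± 0.039 SE, adjusted p = 4.85e-09). After RBPMS knockdown it was at 47.6, 43.3 and 46.5 CPM (adjusted p = 0.96). The level after QKI knockdown was above that after RBFOX2 (adjusted p = 2.81e-05) and RBPMS knockdown (adjusted p = 7.1e-09). Pfkfb4, a related bifunctional enzyme, fell in the RBPMS knockdown (-0.37, adjusted p = 0.000242), with changes of -0.10 and -0.05 in the RBFOX2 and QKI knockdowns that did not pass.

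Pdk1, the kinase that keeps pyruvate out of the mitochondrial cycle and a textbook HIF target, was at 13.1, 14.1 and 14.7 CPM in control. It fell to 10.3, 10.4 and 9.74 CPM in the RBPMS knockdown (log2 fold change -0.46 ± 0.056 SE, adjusted p = 1.65e-06) and to 11.9, 12.1 and 11.1 CPM in the QKI knockdown (-0.26 ± 0.055 SE, adjusted p = 0.000486). In the RBFOX2 knockdown it was at 12.8, 13.1 and 13.1 CPM, which overlapped with control (-0.10, adjusted p = 0.119). Without control library 1 this last change passed the test (-0.15, adjusted p = 0.0436). The level after RBFOX2 knockdown was above that after RBPMS knockdown (adjusted p = 3.4e-05).

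The members that remove mitochondria or restrain mTOR were lower. Bnip3, a mitophagy receptor induced by HIF, was at 43.3, 43.5 and 39.8 CPM in control. It fell to 18.3, 18.4 and 17.4 CPM in the RBFOX2 knockdown, 2.34-fold (log2 fold change -1.23 ± 0.053 SE, adjusted p = 2.49e-12). It fell to 26.6, 26.0 and 26.2 CPM in the QKI knockdown (-0.68, adjusted p = 2.68e-09) and to 32.2, 37.3 and 35.2 CPM in the RBPMS knockdown (-0.27, adjusted p = 0.00019). The 4 groups did not overlap, and each pair of knockdowns differed (adjusted p = 1.53e-10 for RBFOX2 against RBPMS, 6.85e-08 for RBFOX2 against QKI and 2.65e-06 for RBPMS against QKI). Bnip3l, its close relative, fell in the RBFOX2 (-0.59, adjusted p = 6.11e-10) and RBPMS knockdowns (-0.33, adjusted p = 9.57e-07) and had a change of -0.01 in the QKI knockdown that did not pass.

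Ddit4 encodes REDD1, which restrains mTOR complex 1 when oxygen or energy is short. It was at 47.9, 48.1 and 52.7 CPM in control and fell to 11.9, 11.7 and 13.4 CPM in the QKI knockdown, 4.01-fold (log2 fold change -2.01 ± 0.054 SE, adjusted p = 2.81e-15). It fell to 27.3, 25.8 and 27.1 CPM in the RBFOX2 knockdown, 1.85-fold (adjusted p = 1.09e-10), and to 35.1, 36.5 and 36.6 CPM in the RBPMS knockdown, 1.38-fold (adjusted p = 5.16e-07). No groups overlapped. The order of the knockdowns was therefore not that of Bnip3, since Ddit4 was 2.17-fold higher after RBFOX2 than after QKI knockdown (adjusted p = 6.46e-12), 2.92-fold higher after RBPMS than after QKI knockdown (adjusted p = 1.34e-13) and lower after RBFOX2 than after RBPMS knockdown (adjusted p = 1.74e-06).

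Of the other 8 hypoxia-induced members, Ankrd37, an ankyrin repeat protein gene, was at 4.56, 3.87 and 3.72 CPM in control. It fell to 1.51, 1.52 and 1.29 CPM in the RBFOX2 knockdown, 2.80-fold (log2 fold change -1.49 ± 0.14 SE, adjusted p = 7.09e-08), and to 1.28, 1.00 and 1.24 CPM in the QKI knockdown, 3.43-fold (-1.78 ± 0.14 SE, adjusted p = 6.91e-09). These levels rest on 115 to 214 counts per library. The difference between these knockdowns did not pass the test (log2 difference 0.29 ± 0.15 SE, adjusted p = 0.102). In the RBPMS knockdown Ankrd37 was at 2.36, 3.5 and 3.03 CPM (-0.44, adjusted p = 0.0088), above the level after RBFOX2 knockdown (adjusted p = 8.35e-06). That smaller fall was lost without control library 1 (-0.35, adjusted p = 0.0546), without RBPMS knockdown library 1 (-0.30, adjusted p = 0.0505) and with the normalised table (adjusted p = 0.0521).

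Mxi1 encodes a MAX-binding repressor that opposes MYC, and was at 24.6, 24.7 and 25.0 CPM in control. It fell to 8.27, 8.79 and 9.51 CPM in the QKI knockdown, 2.80-fold (log2 fold change -1.48 ± 0.053 SE, adjusted p = 9.61e-14). It fell to 14.1, 14.2 and 14.3 CPM in the RBFOX2 knockdown (-0.80, adjusted p = 3.99e-10) and to 16, 16 and 14.9 CPM in the RBPMS knockdown (-0.67, adjusted p = 5.22e-09). The level after QKI knockdown was below both others (adjusted p = 3.75e-09 against RBFOX2 and 5.47e-10 against RBPMS). Kdm3a, a histone demethylase gene, fell by 0.34, 0.69 and 0.25 on the log2 scale after RBPMS, RBFOX2 and QKI knockdown.

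The collagen prolyl hydroxylase genes went separate ways. P4ha2 was at 34.8, 38.3 and 35.7 CPM in control and rose in every knockdown. It was at 117, 127 and 118 CPM in the RBPMS knockdown, 3.33-fold (log2 fold change 1.74 ± 0.042 SE, adjusted p = 3.49e-15), at 123, 124 and 123 CPM in the RBFOX2 knockdown, 3.40-fold (adjusted p = 1.19e-15), and at 113, 114 and 109 CPM in the QKI knockdown, 3.09-fold (adjusted p = 1.63e-15). It had the highest log2 fold change of all members in each knockdown. The RBFOX2 and RBPMS knockdowns overlapped (log2 difference 0.03 ± 0.040 SE, adjusted p = 0.54), and this difference passed with library totals (0.13, adjusted p = 0.00862) and with the normalised table (0.12, adjusted p = 0.0252). P4ha1, the other collagen prolyl hydroxylase gene among the members, fell in the RBPMS (-0.34) and RBFOX2 knockdowns (-0.16). Its change of -0.08 in the QKI knockdown did not pass (adjusted p = 0.0734). This QKI change passed in the fit of 6 libraries (adjusted p = 0.0408), without control library 2 (adjusted p = 0.0374) or without QKI knockdown library 2 (adjusted p = 0.0347).

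Ndrg1 and Car9 were each higher in 1 knockdown and lower in another. Ndrg1, a stress-responsive gene, stood at 43.0, 47.9 and 32.9 CPM in control, a wide spread. It rose to 61.5, 69.2 and 64.4 CPM in the RBPMS knockdown (0.66 ± 0.10 SE on the log2 scale, adjusted p = 2.4e-05) and fell to 16.6, 14.3 and 18.1 CPM in the QKI knockdown (-1.33 ± 0.11 SE, adjusted p = 4.7e-09). After RBFOX2 knockdown it was at 41.4, 40.7 and 44.4 CPM, within the range of control (adjusted p = 0.816). It was 3.97-fold higher after RBPMS than after QKI knockdown (adjusted p = 4.01e-11), 2.58-fold higher after RBFOX2 than after QKI knockdown (adjusted p = 3.53e-09) and lower after RBFOX2 than after RBPMS knockdown (adjusted p = 4.54e-05).

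Car9, a cell-surface carbonic anhydrase widely used as a marker of hypoxia, was at 16.6, 15.8 and 18.7 CPM in control. It rose to 26.7, 27.3 and 27.0 CPM in the RBFOX2 knockdown (log2 fold change 0.66 ± 0.064 SE, adjusted p = 8.61e-08). It fell to 9.40, 10.2 and 9.19 CPM in the RBPMS knockdown (-0.83 ± 0.067 SE, adjusted p = 1.11e-08) and to 13.5, 14.2 and 12.3 CPM in the QKI knockdown (-0.35 ± 0.065 SE, adjusted p = 0.000127). None of the 4 groups overlapped, and each pair of knockdowns differed (adjusted p = 9.4e-12 for RBFOX2 against RBPMS, 2.62e-10 for RBFOX2 against QKI and 1.08e-05 for RBPMS against QKI). Adm, which encodes the vasodilator peptide adrenomedullin, was low in all groups. It was at 1.04, 1.20 and 0.955 CPM in control, 1.44, 1.86 and 1.78 in the RBPMS knockdown, 1.94, 1.44 and 1.69 in the RBFOX2 knockdown and 1.82, 1.5 and 1.65 in the QKI knockdown. It rose in each of them (log2 fold changes 0.67, 0.66 and 0.63, adjusted p = 0.000874, 0.000883 and 0.00113), on 128 to 268 counts per library.

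**Figure D4:**
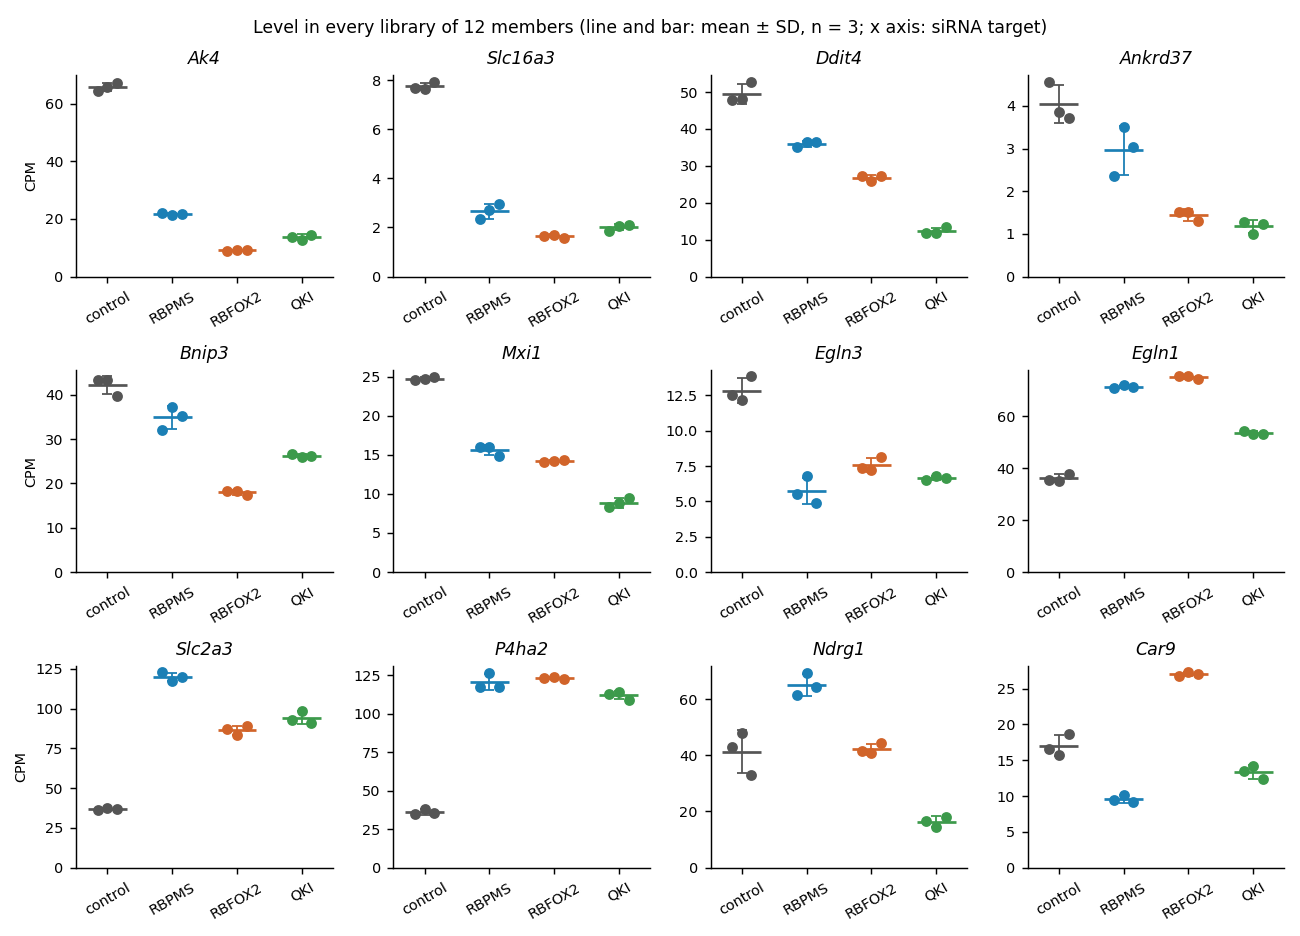
CPM (y axis, each from 0) in every library of 12 members by siRNA target (x axis), with the mean and SD of 3 libraries per group. Ak4, Slc16a3, Ddit4, Ankrd37, Bnip3, Mxi1 and Egln3 lie below control in all knockdowns, Egln1, Slc2a3 and P4ha2 lie above it, and Ndrg1 and Car9 lie on different sides depending on the knockdown.

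Further genes of the same pathways were taken from lists that also were drawn up with earlier results of these data known. Of 27 other glycolysis genes 25 were tested, and 8 were higher and 8 lower in the RBPMS knockdown, 8 higher and 10 lower in the RBFOX2 knockdown, and 6 higher and 12 lower in the QKI knockdown. In the RBPMS knockdown these shares, 32.0% each way, were near those of all genes (30.4% higher and 29% lower). They were 32.0% higher and 40% lower in the RBFOX2 knockdown (30.1% each way for all genes) and 24.0% and 48.0% in the QKI knockdown (32.9% and 34% for all genes). Slc16a1, the more widely expressed lactate carrier MCT1, rose by 1.11 on the log2 scale after RBPMS, 0.61 after RBFOX2 and 1.21 after QKI knockdown, where Slc16a3 fell in all 3. Pdk2, a relative of Pdk1, fell by 1.36, 0.69 and 0.46 in the same order. In the QKI knockdown the muscle enolase Eno3 (-1.32), which overlaps Spag7 in the annotation, and the monocarboxylate carrier Slc16a7 (-1.20) fell.

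Of 40 other hypoxia-induced genes 37 were tested. After RBPMS knockdown 10 were higher and 16 lower, in the RBFOX2 knockdown 11 were higher and 21 lower, and in the QKI knockdown 14 were higher and 20 lower. The higher shares of 27.0%, 29.7% and 37.8% were near those of all genes (30.4%, 30.1% and 32.9%), and the lower shares were 43.2%, 56.8% and 54.1%, against 29%, 30.1% and 34%. Hmox1, the heme oxygenase gene, rose by 1.35, 1.12 and 1.45 on the log2 scale after RBPMS, RBFOX2 and QKI knockdown, and the collagen cross-linking enzyme gene Lox rose by 1.33, 1.01 and 0.64. Ppp1r3c, a glycogen-targeting phosphatase subunit gene, fell after RBPMS (-1.30) and QKI knockdown (-1.82) and rose after RBFOX2 knockdown (0.40). Arnt2, a relative of Arnt, fell by 1.28 after RBFOX2 knockdown, and Insig2, a regulator of sterol synthesis, fell by 1.42 after QKI knockdown.

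Most of the other adenylate kinase genes were not lower, unlike Ak4. Of 9 other adenylate kinase genes 8 were tested. Of these, 3 were higher and 1 lower in the RBPMS knockdown, 3 higher and 1 lower in the RBFOX2 knockdown, and 4 higher and 1 lower in the QKI knockdown. In that order the higher shares were 37.5%, 37.5% and 50%, against 30.4%, 30.1% and 32.9% of all genes. The lower share was 12.5% in each, against 29%, 30.1% and 34%. Their median log2 fold changes were 0.58, 0.49 and 0.24. Ak3, which like Ak4 is a mitochondrial matrix enzyme, was at 168, 163 and 171 CPM in control and fell to 123, 130 and 116 CPM in the RBPMS knockdown, 147, 151 and 143 CPM in the RBFOX2 knockdown and 57.3, 57.9 and 56.8 CPM in the QKI knockdown. Its log2 fold change was -1.54 after QKI knockdown (adjusted p = 2.04e-15) and -0.19 after RBFOX2 knockdown (adjusted p = 0.000561), so the knockdown with the lowest Ak4 was not the one with the lowest Ak3.

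The identity of the cells was checked against fixed markers. The smooth muscle markers Acta2, Tagln, Myl9, Cnn1, Myh11, Mylk and Des were all above 1 CPM, with a summed level of 1975 to 2040 CPM in control, 939 to 1060 in the RBPMS knockdown, 670 to 774 in the RBFOX2 knockdown and 1330 to 1415 in the QKI knockdown. The sum is led by Acta2, Tagln and Myl9, whereas Cnn1, Myh11, Mylk and Des had means of 6.43, 6.48, 4.18 and 9.9 CPM in control. Of these 7 genes 5, 5 and 4 were lower in the RBPMS, RBFOX2 and QKI knockdowns and 2, 1 and 2 were higher. Of all genes tested, 29%, 30.1% and 34% were lower and 30.4%, 30.1% and 32.9% were higher in the same order. The higher markers were Myh11, by 1.27-fold, 2.07-fold and 1.14-fold in that order, and Des after RBPMS (1.575-fold) and QKI knockdown (1.97-fold). The 4 endothelial markers summed to 7.49 to 9.09 CPM in control and 4.31 to 7.95 CPM across the knockdowns, with Pecam1 and Kdr under 1 CPM. Cdh5 and Tek were detected, with means of 6.77 and 1.32 CPM in control. The 3 leukocyte markers summed to 0.972 to 2.10 CPM, with Ptprc and Adgre1 under 1 CPM. Of the 4 epithelial markers Epcam, Krt18 and Cdh1 were under 1 CPM, while Krt8 had a mean of 30.6 CPM in control and of 72.6 CPM after RBFOX2 knockdown. The part of the change in smooth muscle genes or in Krt8 in the results on the members was not tested.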

How the data were processed

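RNA was sequenced from 12 libraries of PAC1 cells, 3 for each of 4 siRNA groups taken from the sample titles. Poly(A) RNA was made into strand-specific libraries and read as paired ends. The main deposited file held raw counts for each gene, which the authors made with STAR and featureCounts on assembly mRatBN7.2 with a RefSeq annotation. The processing notes of the submitters name STAR 2.5.2a, edgeR 3.28.1 and DESeq2 1.30.0. A second deposited table held normalised signal values after a noise filter and quantile normalisation by the authors, and it was used only as an alternative. Handling of multi-mapped reads, and whether strand was used in counting, is not given in the sources used here. The count totals exceeded the subsampled depth that the methods state, and 68.1% of values from 1 to 19 were even, against 50.9% above 1000, so a fragment may have been counted more than once. Halved counts were run as an alternative.

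Counts were scaled by TMM, filtered with filterByExpr (18438 of 33294 genes, 99.99% of counts) and tested with edgeR 4.0.16 in R 4.3.3, by glmQLFit and glmQLFTest over all 12 libraries with no covariate, two-sided, with Benjamini-Hochberg adjustment over all genes tested. A call is an adjusted p under 0.05, and calls with an absolute log2 fold change above 1 were also counted. The SE is the absolute log2 fold change divided by the square root of F. The procedure was tested on simulated data. Levels were not compared between genes, since the table gives no transcript lengths.

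The members and the gene lists were chosen with earlier results of these data known. Every member is named, and values in every library are given for Ak4, the oxygen-sensing members, a fixed set (Slc2a1, Hk2, Pfkfb3, Gapdh, Pgk1, Ldha, Pdk1, Bnip3, Ddit4, Adm and Car9) and each member called past 2-fold in any knockdown. Genes of the companion lists are named when called past 2-fold with a mean of at least 5 CPM, at most 4 per list and knockdown. Some genes of these lists that meet this rule are not reported here. The pairs of knockdowns compared directly were picked after their values were seen. Ak4 has no p where the RBFOX2 knockdown is 1 side. It is counted among the members in the RBPMS and QKI comparisons, which share the control libraries used in the choice. The replicate numbers did not pair the libraries. Alternatives were other scalings and filters, DESeq2 1.42.0, limma 3.58.1 on log2(value + 1) of the normalised table, halved counts, a fit of 6 libraries, a replicate block and leaving out each library.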

Additional observations from a re-analysis of the deposited data

How the results depend on the processing

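All counts of members higher or lower than control, at both thresholds, stayed within 1.5 times the reported count under every alternative, leaving out each library included. With every library kept, the members lower at an adjusted p under 0.05 numbered 22 to 24 in the RBPMS, 22 to 23 in the RBFOX2 and 22 to 27 in the QKI knockdown. The median log2 fold change of the members kept its sign. In the RBFOX2 knockdown it was -0.244 with library totals, -0.341 with a mean of at least 200 counts and -0.237 with the normalised table, and in the QKI knockdown -0.211 with library totals and -0.203 with the normalised table; the cause was not tested. Library totals moved the median of all genes to -0.036, 0.069 and 0.093 in the RBPMS, RBFOX2 and QKI knockdowns, and to 0.108 between RBFOX2 and RBPMS and -0.12 between RBPMS and QKI.

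For single members against control, leaving out no library, 11 values lost the call and 20 gained one, and leaving out 1 library, 6 lost it and 10 gained it. Of the called members, Pgam1 in the QKI knockdown alone changed sign, to 0.026 with the normalised table. The other changes of sign were of values near 0 that had not passed the test. With library totals these were Hk1 -0.023, Gapdh -0.025 and Eno1 -0.006 in the RBPMS knockdown and Vhl 0.072, Pfkfb4 0.031, Bnip3l 0.074 and P4ha1 0.009 in the QKI knockdown. With the normalised table they were Hk1 -0.035 and Gapdh -0.026 in the RBPMS knockdown and Vhl 0.022, Eno1 0.013, Pfkfb4 0.121 and Bnip3l 0.039 in the QKI knockdown. With a mean of at least 200 counts they were Vhl 0.02 and Bnip3l 0.022 in the QKI knockdown. Hk2 in the RBFOX2 knockdown was -0.005 with RLE size factors and with DESeq2, -0.01 with no filter and -0.001 with halved counts, and Pfkfb3 in the RBPMS knockdown was 0.0 in the fit of 6 libraries.

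Leaving out 1 library gave ranges across 0 for Aldoc (-0.082 to 0.346), Eno1 (-0.05 to 0.082), Gapdh (-0.054 to 0.068), Pfkfb3 (-0.032 to 0.036) and Pgk1 (-0.085 to 0.027) in the RBPMS knockdown, Hk2 (-0.025 to 0.03) and Ndrg1 (-0.111 to 0.151) in the RBFOX2 knockdown and Bnip3l (-0.034 to 0.004) in the QKI knockdown. The replicate numbers did not pair the libraries: the correlations of deviations from the group means ran from -0.344 to 0.246 over 18 same-numbered pairs, and 4 of them were over 0.1. With the replicate number as a block, 22 members were lower in the RBPMS, 23 in the RBFOX2 and 25 in the QKI knockdown, the same counts as without it, and 8 were higher in each.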
